A study of Mus musculus with 6 samples.

Results

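The genes described here, in regulatory T cells of mice, are 8 adhesion, cytoskeleton and trafficking genes: Agap1, Jup, Cadm1, Myo10, Tns3, Nav1, Sash1 and Tspan15. They were chosen by symbol because their counts were far higher in the Bcl11b knockout (KO) libraries than in wild type (WT) and partly lower again in KO libraries with EAE. All 8 genes were found among the 24424 genes of the deposited count table, all 8 also among the 23393 genes of the authors' normalized table, and all 8 passed the filters on low values in both. The choice rested on the count table, so the values of that table are given for these genes as a description, without a test, and only the normalized table gives them one.

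The 8 proteins work where a cell touches its surroundings or moves cargo inside. Jup (plakoglobin) is an armadillo protein that ties desmosomal and classical cadherins to the cytoskeleton, Cadm1 is an immunoglobulin-type adhesion molecule, and Tns3 is a tensin that links integrin tails to actin. Myo10 is a motor that travels to the tips of filopodia, Nav1 tracks the plus ends of microtubules, and Agap1 switches off Arf GTPases and binds the endosomal adaptor AP-3. Sash1 is a scaffold with SAM and SH3 domains that takes part in Toll-like receptor signalling, and Tspan15 is a tetraspanin that guides the surface protease Adam10. Cadm1 is also widely used as a surface marker of cross-presenting dendritic cells.

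RNA had been sequenced from sorted regulatory T cells of spleen and peripheral lymph nodes, in 6 libraries that form 3 groups of 2. WT mice carried the strain label Bcl11bF/F, which names no Cre. KO mice carried Bcl11bF/WT Foxp3YFP-Cre +/-, in which the Foxp3 gene, active in regulatory T cells, drives Cre, and the KO EAE libraries had that same strain. The strain label thus names 1 floxed and 1 wild-type Bcl11b allele where the genotype label says KO. EAE usually stands for experimental autoimmune encephalomyelitis, an induced disease that mimics multiple sclerosis, and the other 2 groups were at steady state. The sources used here state neither the age of the mice nor the agent that induced EAE, and WT cells in EAE were not analysed here. Whether replicates are separate mice or sorts is not in the labels. A p-value here therefore sets a group difference against the spread between these libraries, which may be a technical spread.

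The count table held 14663542 to 16904312 reads per library, and the reads recovered from the normalized table came to 16884434 to 25335011. The 2 tables carry the same library names for WT and KO with different values, so groups are compared only within a table. A level is given as CPM, the usual read count scaled by library size, after TMM scaling, a correction for differences in RNA composition, and 3 reads, the limit that a count of 0 allows, correspond to 0.170 to 0.205 CPM in the count table. Bcl11b itself averaged 422 ± 3.30 CPM in WT (SD, n = 2) and 371 ± 1.32 CPM in KO in the count table, a log2 change of -0.19 ± 0.17 (SE) with adjusted p = 0.527 in edgeR's quasi-likelihood test. The 2 KO EAE libraries stood apart from each other, at 404 and 278 CPM. In the reads recovered from the normalized table Bcl11b stood at 498 and 542 CPM in the WT libraries against 321 and 249.3 in the KO libraries, and the authors' deposited table lists a log2 fold change of -0.80 (adjusted p = 7.91e-08). On the same normalized values limma gave adjusted p = 0.0895 and edgeR on the recovered reads 0.0987, so of these tests the authors' alone called Bcl11b. Foxp3, which defines the lineage, averaged 208 ± 3.10 CPM in WT, against 159.9 ± 6.62 in KO (log2 change -0.38, edgeR adjusted p = 0.0254) and 156 ± 9.76 in KO EAE. The log2 change of Foxp3 in the normalized table was -0.07 (limma adjusted p = 0.852).

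The adhesion genes Jup, Cadm1 and Tns3 lay between 5.94 and 12.5 CPM in WT and between 121 and 151 CPM in KO. Jup stood at 12.5 and 11.8 CPM in WT replicates 1 and 2, at 137 and 151 CPM in KO, and at 92.8 and 92.5 CPM in KO EAE. Its group mean was 11.9 times higher in KO than in WT, and KO EAE kept 64.4% of the KO level. The 3 groups of Jup did not overlap, and KO EAE lay between the other 2. Cadm1, whose partner on cytotoxic lymphocytes is Crtam, had 6.13 and 6.12 CPM in WT, 121 and 135 CPM in KO, against 88.1 and 98.2 CPM in KO EAE. Cadm1 kept more of its KO level in EAE than the other 7 genes, at 72.7%. Tns3 had 5.94 and 7.35 CPM in WT, 141 and 136 CPM in KO, against 77.4 and 87.3 CPM in KO EAE. As for Jup and Cadm1, every KO value of Tns3 was above every KO EAE value, and every KO EAE value above every WT value. The genes were chosen for this order in these counts, so nothing is read from it. The share of all genes with that order was not counted.

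Stretches upstream of Jup and Tns3 are shown because these were the genes of the 8 whose 250 bases before the start overlapped no annotated exon. They come from RefSeq (build GRCm38.p6) and are on the minus strand of chromosome 11, chr11:100397791-100398040 for Jup and chr11:8664536-8664785 for Tns3. Capitals mark matches to a GC box (GGGCGG) or a CCAAT box on either strand.
Jup: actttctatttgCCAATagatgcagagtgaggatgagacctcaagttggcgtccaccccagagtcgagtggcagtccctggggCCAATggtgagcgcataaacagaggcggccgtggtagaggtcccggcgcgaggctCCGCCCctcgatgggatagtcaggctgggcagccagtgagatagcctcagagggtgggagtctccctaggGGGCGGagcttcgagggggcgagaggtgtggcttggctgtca
Tns3: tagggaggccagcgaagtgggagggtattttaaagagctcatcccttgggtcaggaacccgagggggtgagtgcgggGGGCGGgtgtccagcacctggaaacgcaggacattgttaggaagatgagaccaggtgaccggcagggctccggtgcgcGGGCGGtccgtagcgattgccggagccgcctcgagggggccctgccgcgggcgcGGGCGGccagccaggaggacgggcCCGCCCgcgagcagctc
The Jup stretch held matches to both motifs, and the Tns3 stretch to the GC box alone. RefSeq start windows of 300 bases were matched for 7 of the 8 genes (8 windows, 2 of them for Myo10). Cadm1 was not matched. A GC box was found in 5 of the 8 windows (62.5%), against 35.7% of all 32851 windows in the table, and a CCAAT box in 3 (37.5%, against 37.4%). The PU.1 box GAGGAAG was in 1 window, that of Nav1 (12.5%, against 13.6%), TATAAA in 2 (25%, against 13.6%) and the AP-1 site TGANTCA in 1, that of Tspan15 (12.5%, against 7.81%). TGTGGT, a RUNX site, and CACGTG, an E-box, had no match in these windows, and 16.8% and 7.15% of all windows held one. None of the motifs was thus common to the 7 genes, and a match describes letters, not a bound site.

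The cytoskeletal motors and trackers followed the same order of groups. Myo10 had 15.1 and 14.1 CPM in WT, 134 and 136 CPM in KO, against 90.4 and 92.7 CPM in KO EAE. It was the highest of the 8 in WT by CPM and had the smallest fold, 9.22 times. Nav1 had 3.69 and 3.92 CPM in WT, 71.2 and 78.4 CPM in KO, against 42.7 and 47.4 CPM in KO EAE, a mean 19.7 times higher in KO than in WT. Neither gene had overlapping groups, which the choice of the genes favoured.

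The trafficking, scaffold and membrane genes included the largest and the lowest-count members. Agap1 had 3.19 and 3.18 CPM in WT, 98.0 and 98.8 CPM in KO, against 53.7 and 59.4 CPM in KO EAE. Its replicates lay close together, and its KO mean was 30.9 times the WT mean. Sash1 had 6.69 and 7.72 CPM in WT, 136 and 141 CPM in KO, against 71.3 and 85.2 CPM in KO EAE. Its KO EAE replicates stood further apart than those of the other genes in CPM (SD 9.79), but still below both KO libraries. Tspan15 had 1.25 and 1.04 CPM in WT, which rests on 20 and 17 reads, 40.6 and 39.1 CPM in KO, and 16.8 and 17.4 CPM in KO EAE. This was the largest fold from WT to KO among the 8, at 34.8 times, and also the largest drop in EAE, to 42.9% of the KO level.

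**Figure D1:**
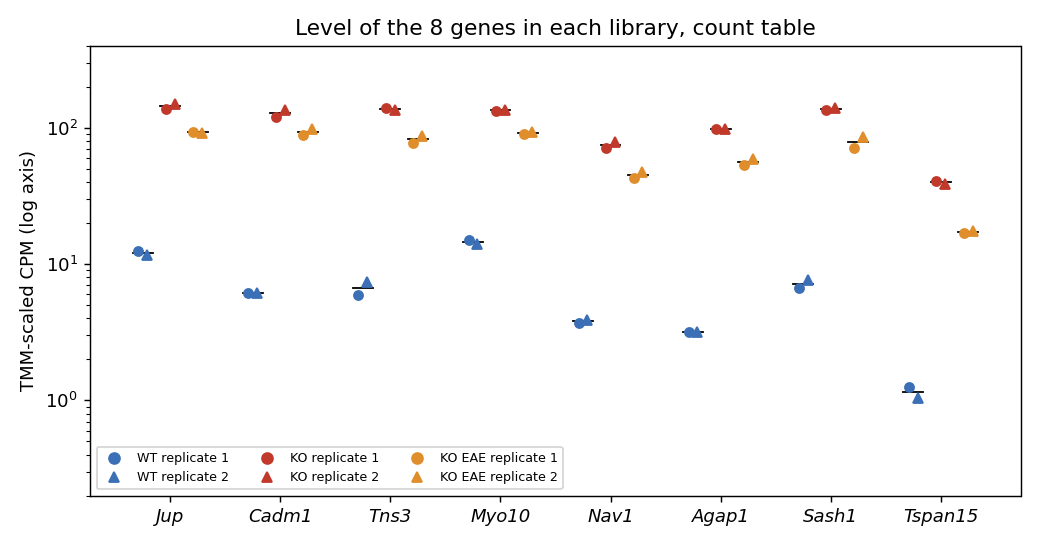
TMM-scaled CPM of the 8 genes in each of the 6 libraries of the count table, on a log axis, with a bar at the mean of the 2 replicates of each group. For each gene the WT points lie lowest, the KO points highest and the KO EAE points between them, from 1.04 CPM (Tspan15, WT) to 151 CPM (Jup, KO). The genes were chosen for this order in these counts.

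Over the 8 genes, the log2 change from WT to KO ran from 3.20 (Myo10) to 5.11 (Tspan15), with a median of 4.34, and the median over all 14548 genes tested was -0.01. The rise among all genes tested placed Tspan15 at rank 19, Agap1 at 29, Cadm1 at 118, Tns3 at 120, Nav1 at 147, Sash1 at 155, Jup at 364 and Myo10 at 485. Of all genes tested, 9.41% were called higher in KO (edgeR, adjusted p under 0.05), and since the rule used this contrast nothing is read from the place of the 8. From KO to KO EAE the log2 change ran from -1.22 (Tspan15) to -0.46 (Cadm1), with a median of -0.74. Both differences use the same KO libraries. In that comparison 0% of all genes were called lower and 0.0137% higher by edgeR, with an unadjusted p under 0.05 for 1378 genes and 167 genes called by DESeq2. KO EAE stayed 6.27 (Myo10) to 17.7 (Agap1) times above WT, in a comparison where edgeR called 7.41% of all genes higher and 9.36% in either direction. Expressed as the part of the WT to KO difference that was left in KO EAE, the genes kept 41.3% (Tspan15), 54.1% (Sash1), 56.1% (Agap1), 57.4% (Tns3), 58.0% (Nav1), 61.1% (Jup), 64.1% (Myo10) and 71.3% (Cadm1).

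Levels can be set beside each other only per length of exon, here CPM per kilobase of the union of GENCODE M21 exons. In KO, Jup led with 21.4 to 23.4 CPM per kilobase, followed by Sash1 (15.9 to 16.5) and Myo10 (13.2 to 13.4). Cadm1 (11.6 to 12.9) and Tns3 (12.2 to 12.6) overlapped and cannot be ordered. Agap1 (5.58 to 5.63), Tspan15 (4.78 to 4.97) and Nav1 (4.11 to 4.53) were lowest, and Nav1, with a long exon set, took the last place that Tspan15 has by CPM. In WT the order was different: Jup (1.89 on average) and Myo10 (1.44) were ahead of Sash1 (0.841), and the other 5 lay between 0.140 and 0.594.

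The 8 loci are spread over 5 chromosomes (mm10, GENCODE M21). Agap1 spans chr1:89454806-89897617 and Nav1 chr1:135434580-135607295. Tns3 (chr11:8431652-8664535) and Jup (chr11:100368958-100397763) share chromosome 11, and Sash1 (chr10:8722219-8886070) and Tspan15 (chr10:62185396-62231251) share chromosome 10. Cadm1 lies at chr9:47530173-47857637 and Myo10 at chr15:25622525-25813673. All are protein-coding. Exons of Nav1 overlap the antisense gene Gm4793 and the noncoding gene Gm38399, and exons of Sash1 overlap the antisense gene Gm26674. None of these 3 neighbours is a row of the count table, and since strand use in counting is not given, their reads could not be told from those of Nav1 and Sash1. A miRNA gene inside Tspan15, Mir7662, had at most 1 read in a library.

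In the authors' normalized table, which the rule did not use, each of the 8 genes was again higher in both KO libraries than in both WT libraries, and none passed the test. The share of all 12208 genes with both KO values above both WT values was 23.5%. By limma on log2(value + 1), 0 of 8 had an adjusted p under 0.05, where 0.00819% of all genes were called higher. The unadjusted p was under 0.05 for 6 of the 8, against 6.85% of all genes in that direction, and edgeR on the recovered reads also called 0 of 8, against 0.0653% of genes. Whether these are other libraries or other counts of the same ones is not given in the sources used here, and this table may not be independent of the count table.

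Nav1 was the clearest of the 8 in this table. Its normalized values were 54.7 and 38.8 in WT and 280.3 and 290.2 in KO, and the log2 change was 2.60 ± 0.44 (SE; limma, adjusted p = 0.105). Tspan15 had 22.9 and 20.5 in WT and 149.7 and 109.9 in KO (2.51 ± 0.61; limma, adjusted p = 0.204). For these 2 genes and for Myo10, WT replicate 1 was not below WT replicate 2. Myo10 had 163 and 129 in WT and 357 and 402 in KO (1.38 ± 0.32; limma, adjusted p = 0.193).

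For the other 5 genes WT replicate 1 was below WT replicate 2. Cadm1 had 162 and 285 in WT and 723 and 513 in KO (1.499 ± 0.354; limma, adjusted p = 0.193). Jup had 91.7 and 329 in WT and 633 and 509 in KO (1.70 ± 0.55; limma, adjusted p = 0.292). Tns3 had 12.7 and 57.1 in WT and 112 and 82.4 in KO (1.78 ± 0.82; limma, adjusted p = 0.407). On the log2 scale the WT replicates of Jup, and likewise of Tns3, lay further apart than WT replicate 2 and either KO replicate. Agap1 had 0 and 81.9 in WT and 238 and 154 in KO, and Sash1 had 0 and 16.2 in WT and 33.9 and 30.1 in KO. A count of 0 in WT replicate 1 allows up to 0.181 CPM there, for counting error only. The fitted log2 changes of Agap1 (4.40 ± 1.80; limma, adjusted p = 0.372) and Sash1 (2.99 ± 1.60; limma, adjusted p = 0.460) depend on the pseudocount for that reason and were 2.24 and 1.95 by edgeR on the recovered reads.

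One WT library decided several of these values. With 1 WT library left, the spread comes from the 2 KO libraries, and the WT library is assumed to vary like them. Without WT replicate 2, limma gave adjusted p = 0.00266 for Jup (2.62), 0.0115 for Cadm1 (1.91) and 0.0156 for Nav1 (2.36), and 552 genes in all were called. Agap1 and Sash1 were called there too (limma adjusted p = 0.000779 and 0.0423), but against a single WT library with 0 reads, so no fold is given. Without WT replicate 1, Nav1 alone of the 8 was called (2.85, adjusted p = 0.0298), and Agap1, Jup, Tns3 and Sash1 came to 1.21, 0.79, 0.74 and 0.94. Macrophage and monocyte markers moved the same way among these libraries: their summed level was 437 CPM in WT replicate 1, 705 in WT replicate 2, 1562 in KO replicate 1 and 1275 in KO replicate 2, and their part in the result was not tested. This order of libraries was not particular to that list. The conventional dendritic cell list had it too (21.3, 22.6, 43.6 and 33.9 CPM), as did the NK cell list (92.1, 134, 228 and 191 CPM). So did the plasma cell, basophil and mast cell, and erythroid lists, while the remaining marker lists, such as B cell (34.1, 64.6, 63.6 and 39.1 CPM), did not.

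**Figure D2:**
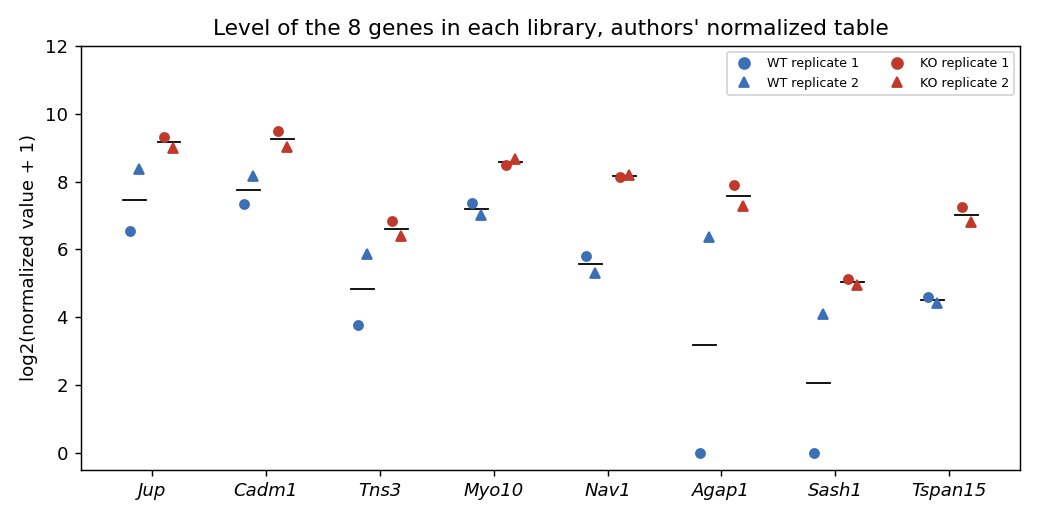
The 8 genes in the 4 libraries of the authors' normalized table, as log2(normalized value + 1), with a bar at the mean of each group. KO points lie above WT points for each gene. WT replicate 1 is far below WT replicate 2 for Jup, Tns3, Agap1 and Sash1, and at 0 for the last 2.

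The authors' deposited table of their own KO against WT comparison lists all 8 as higher in KO. It gives 3 of the 8 an adjusted p under 0.05, against 1.71% of all its genes in that direction (1.64% lower, 3.36% in either). In the authors' deposited table Nav1 has a log2 fold change of 1.01 (adjusted p = 0.000393), Cadm1 of 0.82 (adjusted p = 0.00961) and Myo10 of 0.72 (adjusted p = 0.0371). Jup at 0.63 (adjusted p = 0.0887), Tspan15 at 0.58 (0.0653), Tns3 at 0.27 (0.542) and Agap1 at 0.05 (0.858) are listed there without passing, and Sash1 at 0.11 has no adjusted p in the authors' deposited table. For each of the 8 this fold change is smaller than that fitted here to the normalized values. Agap1, for one, had 4.40 by limma and 2.24 by edgeR on the recovered reads. The 2 sets of sizes are thus not alike, and a small one there does not mean equal group means. The count table and the normalized table differ in level, which is given without a test and shows no change between groups. The KO mean in CPM was 4.34 (Cadm1) to 90.7 (Sash1) times higher in the count table than in the reads recovered from the normalized one. Tns3 stood at 29.8 and Agap1 at 10.5, against a median of 1.41 over 11796 genes tested in both. The genes were chosen for high KO values in the count table, which favours a high ratio, so nothing is read from it. In WT the mean of Cadm1 was lower in the count table (6.13 against 10.6 CPM). The others were higher there, from Tspan15 (1.15 against 1.03 CPM) to Sash1 (7.21 against 0.385 CPM).

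The families and partners of the 8 were taken from 10 lists with 181 genes, of which 167 were tested. By counts, 30 of them (18.0%) rose from WT to KO and 2 (1.20%) fell (edgeR, adjusted p under 0.05), where 9.41% and 3.46% of all genes did. The median log2 change of the 167 was 0.04, against -0.01 over all genes. With any 1 WT or KO library left out, 10 of these 32 calls held in all 4 fits. They were Ctnnd1, Pvrl4, Myo9a, Fmnl2, Parvb, Dlc1, Adap2, Tlr4, Tspan4 and Cd63. From KO to KO EAE none of the 167 was called by edgeR, 14 had an unadjusted p under 0.05, and DESeq2 called 5. In the normalized table limma called none of 136 (22 with an unadjusted p under 0.05), nor did edgeR on the recovered reads. Of the 32 genes called by counts, 27 were tested there, and 17 had the same direction and 10 the other. The unadjusted limma p was under 0.05 for 8 of the 17, among them Ctnnd1 (5.74), Tlr4 (4.69), Arap3 (2.75), Adap2 (2.69) and Tspan4 (1.78), none of which passed the adjusted threshold. Ctnnd1 averaged 0.54 ± 0.76 and Tlr4 57.6 ± 81.5 in WT there (SD), so their sizes depend on the pseudocount. By edgeR on the recovered reads they came to 6.96 and 2.26 (adjusted p = 0.148 and 0.526). Cd63 changed by 0.15 in that table (limma adjusted p = 0.959).

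Among the 18 tested desmosome and cadherin genes around Jup, 2 rose and none fell (median log2 change 0.28). Ctnnd1, p120-catenin, which steadies cadherins at the membrane, stood at 6.75 ± 0.364 CPM in WT and rose to 76.5 ± 1.21 in KO (SD, n = 2), a log2 change of 3.501 ± 0.178 (SE, edgeR adjusted p = 0.00012). Cdh1, E-cadherin, was the other (2.01, edgeR adjusted p = 0.0377), named here after its value was seen, and its call was lost whichever WT or KO library was left out. Ctnnb1, the closest relative of Jup, had 198 ± 4.83 CPM in WT and 232 ± 9.001 in KO (adjusted p = 0.111).

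Of 13 genes of the Cadm and nectin group 2 rose and none fell (median -0.01). Pvrl4, nectin-4, rose from 1.05 ± 0.279 to 13.97 ± 0.412 CPM (3.72 ± 0.34, edgeR adjusted p = 0.00107). Crtam, the receptor that binds Cadm1, rose from 5.11 ± 0.559 to 14.1 ± 0.271 CPM (1.46 ± 0.32, edgeR adjusted p = 0.0326), a call lost whichever WT or KO library was left out (highest adjusted p 0.170).

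Around Tns3, 6 of 26 focal adhesion genes rose and none fell (median 0.12). Dlc1, a protein that tensins bind, went from 1.11 ± 0.0707 to 17.5 ± 3.15 CPM (3.96 ± 0.30), and Parvb, a parvin of the integrin-linked kinase complex, from 3.47 ± 0.227 to 24.4 ± 1.42 CPM (2.81 ± 0.33). Vinculin (Vcl, 1.10 ± 0.22) and focal adhesion kinase (Ptk2, 0.83 ± 0.16) rose by less, and their calls did not hold in every fit with a library left out (highest edgeR adjusted p 0.139 and 0.153). The related tensin gene Tns1 had 101 ± 7.54 CPM in WT and 105 ± 0.379 in KO (adjusted p = 0.859).

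Of 20 unconventional myosins 4 rose and 1 fell (median 0.01). Myo9a rose from 70.9 ± 1.73 to 178 ± 25.4 CPM (1.33 ± 0.11, edgeR adjusted p = 0.000723), and Myo7a from 15.8 ± 0.549 to 42.0 ± 1.34 CPM (1.41 ± 0.20), the latter kept in 1 of 4 fits with a library left out (highest adjusted p 0.0578). Myo1e, a membrane-binding myosin, fell from 95.6 ± 2.41 to 63.8 ± 3.33 CPM (-0.58 ± 0.08), kept in 3 of 4 such fits (highest adjusted p 0.0675). Of 12 filopodium genes 2 rose (median -0.02): the formin Fmnl2 from 3.89 ± 1.17 to 79.0 ± 4.25 CPM (4.34 ± 0.21), and the bundling protein Fscn1 from 4.90 ± 1.47 to 19.0 ± 0.587 CPM (1.96 ± 0.47), the latter lost whichever WT or KO library was left out (highest adjusted p 0.215). In the normalized table the log2 changes were -0.02 for Fmnl2, -0.04 for Myo9a and -0.49 for Myo7a, with limma adjusted p = 0.991, 0.960 and 0.677. Fscn1 had 0.88 there (limma adjusted p = 0.686).

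Of 18 navigator and microtubule plus-end genes 2 rose by edgeR, Clasp2 at 0.44 ± 0.07 and Gas2l1 at 1.36 ± 0.24 (median 0.03), and neither call held when any 1 library was left out (highest adjusted p 0.137 and 0.110). By limma on the normalized values Gas2l1 came to -0.11, with no call. Nav2, the relative of Nav1, had 46.6 ± 8.79 CPM in WT and 66.0 ± 4.49 in KO (adjusted p = 0.159). Of 22 Arf GTPase-activating proteins 2 rose (median -0.10). Adap2 went from 1.05 ± 0.334 to 28.4 ± 4.503 CPM (4.75 ± 0.29, edgeR adjusted p = 0.000215) and Arap3 from 7.80 ± 0.118 to 24.8 ± 1.25 CPM (1.67 ± 0.32), the latter lost whichever WT or KO library was left out (highest adjusted p 0.126). Agap2 and Agap3, of the same subfamily as Agap1, had log2 changes of -0.13 and -0.20 (adjusted p = 0.333 and 0.336). Of 6 tested AP-3 subunits edgeR called 0, with 1 at an unadjusted p under 0.05 and 1 called by DESeq2.

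In the Sash1 group of 9 genes 2 rose and 1 fell (median -0.01). Tlr4, the receptor of bacterial endotoxin, rose from 5.18 ± 0.910 to 64.5 ± 6.18 CPM (3.64 ± 0.17, edgeR adjusted p = 8.93e-05) and Irak4 from 61.5 ± 0.735 to 83.7 ± 1.49 CPM (0.44 ± 0.08). Traf6, the ubiquitin ligase downstream, fell from 228 ± 1.16 to 145 ± 13.6 CPM (-0.65 ± 0.11). The calls of Irak4 and Traf6 did not hold in every fit with a library left out (highest adjusted p 0.136 and 0.107), and limma on the normalized values gave them the other sign (-0.10 and 0.02). Sash3 and Samsn1, the lymphoid relatives of Sash1, had log2 changes of -0.00488 and -0.27 (adjusted p = 0.977 and 0.117), and Sash3 was at 226 CPM in WT and 225 in KO.

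Tetraspanins had the most calls: of 23 tested genes of this list 8 rose and none fell (median 0.36). Tspan4 went from 4.15 ± 0.850 to 46.4 ± 2.30 CPM (3.48 ± 0.19, edgeR adjusted p = 0.000138) and Cd63, a lysosomal tetraspanin, from 1.18 ± 0.193 to 11.03 ± 1.90 CPM (3.22 ± 0.37). Tspan9 rose by 1.15 ± 0.15, kept in 3 of 4 fits with a library left out (highest adjusted p 0.0529). Tspan5, Tspan10, Tspan14, Tspan17 and Tspan33 guide Adam10 like Tspan15. Tspan10, at 2.17 ± 0.0189 CPM in KO, is named after its value was seen (3.28 ± 0.61), and its call was lost whichever WT or KO library was left out. Tspan33 went from 0.526 ± 0.0358 to 5.72 ± 0.305 CPM (3.42 ± 0.53) and Tspan17 from 4.26 ± 0.898 to 9.77 ± 0.173 CPM (1.19 ± 0.28), both lost whichever WT or KO library was left out (highest adjusted p 0.0798 and 0.244). Tspan14, the most abundant of them, had 108 ± 8.83 CPM in WT and 138 ± 8.02 in KO (adjusted p = 0.0618), Tspan5 had 47.1 and 56.9 CPM (adjusted p = 0.133), and Adam10 had 235 ± 5.34 and 221 ± 12.1 CPM (adjusted p = 0.489). Limma on the normalized values gave Tspan17 a change of -0.36, without a call.

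**Figure D3:**
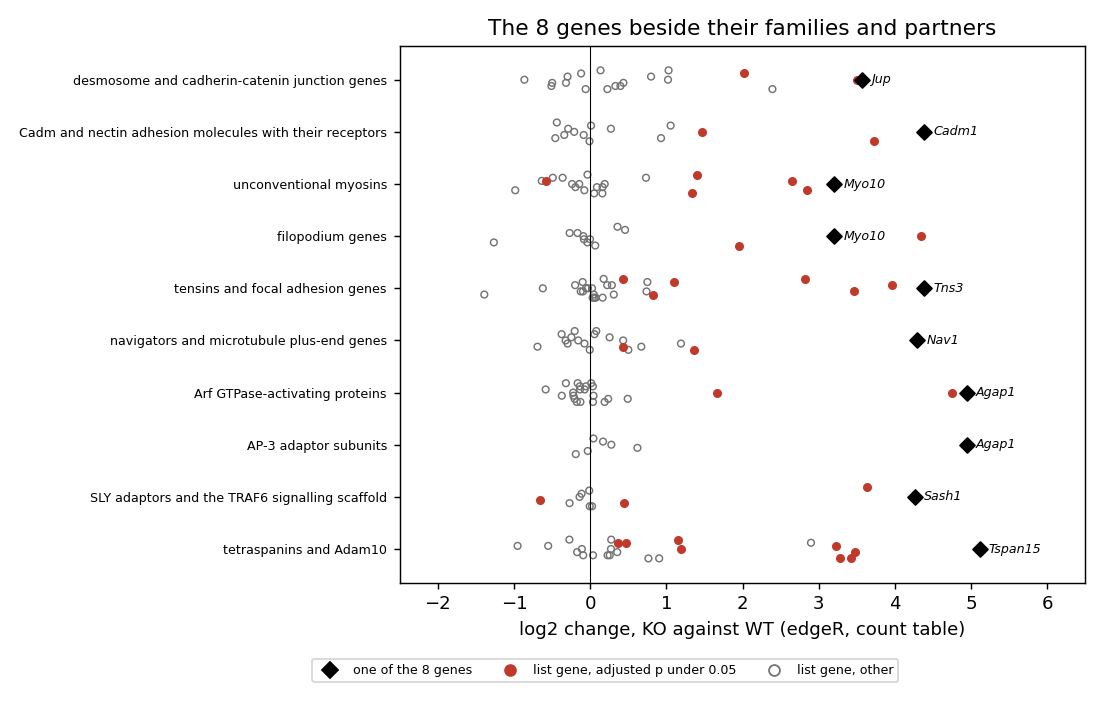
Log2 change from WT to KO in the count table (edgeR) for each tested gene of the 10 lists, with a black diamond for the one of the 8 genes that the list was built around. Most list genes lie near 0, and the diamonds lie between 3.20 and 5.11 together with a few called genes such as Adap2 (4.75), Fmnl2 (4.34) and Dlc1 (3.96).

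Other genes followed the profile of the 8 closely. Likeness was the root mean square difference, over the 6 libraries, between a gene's centred log2 CPM and the mean centred profile of the 8. It ran from 0.036 (Nav1) to 0.45 (Myo10) among the 8, against a median of 1.86 over all genes. The 8 were chosen for this order in these counts and form the mean profile, so their small distances were built in. Of the 14540 other genes, 281 were as near as Myo10. Among the nearest were Slc7a2, an arginine transporter (0.050), Stab2, a scavenger receptor of sinusoidal endothelium (0.067), Tbc1d9 (0.097), Mpzl1 (0.11) and Tbxas1, thromboxane synthase (0.12). Stab2 averaged 6.56 ± 0.601 CPM (SD, n = 2) among WT libraries, 122 ± 1.71 among KO and 78.2 ± 2.30 among KO EAE libraries. Tbxas1 had 3.46 ± 0.298, 67.1 ± 6.65 and 44.7 ± 2.53 CPM in the same groups, and Slc7a2 had 1.67 ± 0.0623, 31.8 ± 1.67 and 18.8 ± 1.82 CPM. These genes were picked for their likeness, so their levels are a description. In the normalized table Stab2 had 26.7 and 239 in WT and 245 and 276 in KO, with WT replicate 1 far below WT replicate 2. Mpzl1 had 110.8 and 107.7 in WT and 402 and 252 in KO, with WT replicates that lay close together.

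**Figure D4:**
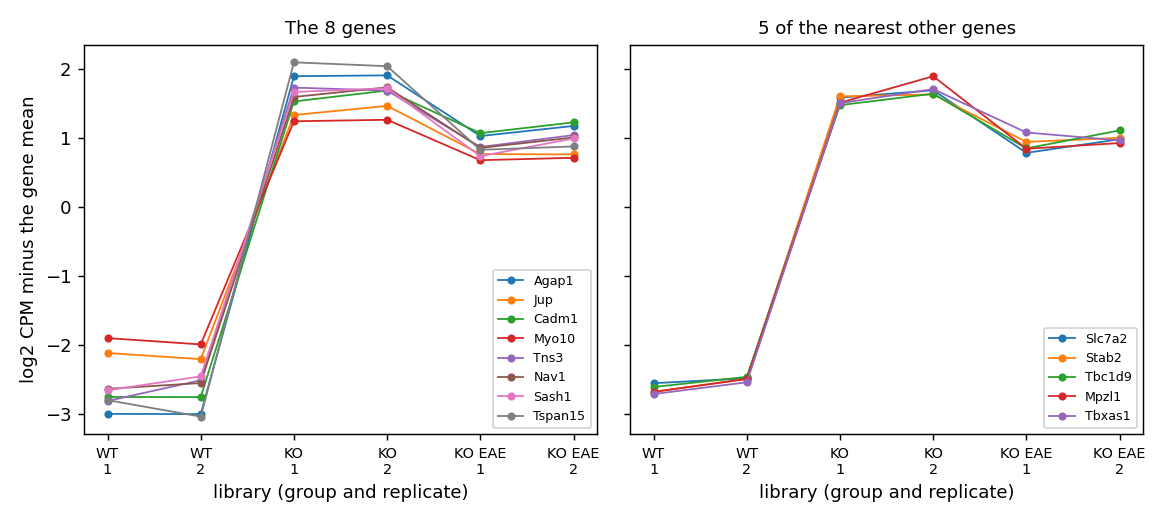
Centred log2 CPM over the 6 libraries of the count table for the 8 genes (left) and 5 of the genes nearest to their mean profile (right). All lines run from below -1.8 in WT to above 1.2 in KO and lie between them in KO EAE.

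Markers of other cell types differed between the same libraries. In these bulk libraries fewer cells of a type and less RNA per cell cannot be told apart. The summed level of the 8 genes was 54.5 and 55.2 CPM in WT, 879 and 915 in KO, against 533 and 580 in KO EAE. Of 15 macrophage and monocyte markers 14 rose from WT to KO and none fell (median log2 change 2.75), with sums of 341 and 342 CPM in WT, 1915 and 2311 in KO, against 1736 and 2058 in KO EAE. Axl (93.3 ± 2.40 to 388 ± 41.0 CPM), Csf1r (53.4 ± 7.51 to 360 ± 49.0 CPM) and Adgre1 (20.6 ± 2.59 to 238 ± 35.0 CPM) were the most abundant of them. Of 10 conventional dendritic cell markers 6 rose (median 3.06), with sums of 34.2 and 35.3 CPM in WT, 286 and 360 in KO, against 188 and 263 in KO EAE. In the normalized table limma called 0 of 15 macrophage and monocyte markers (median 1.48) and 0 of 7 tested conventional dendritic cell markers (median 1.07). Of the 83 markers of all types tested there, limma called 0 (32 with an unadjusted p under 0.05) and edgeR on the recovered reads 3. No macrophage or dendritic cell marker was at 0 in both WT libraries. The part of these cells' RNA in the levels of the 8 genes was not tested.

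From KO to KO EAE the median log2 change was -0.17 for macrophage and monocyte markers and -0.52 for conventional dendritic cell markers, beside -0.74 for the 8 genes. The 8 were chosen for being lower again in KO EAE in these counts, so nothing is read from their larger drop. Itgax, the integrin chain used to mark dendritic cells, went from 5.66 ± 0.921 CPM in WT to 107 ± 21.8 in KO and 64.9 ± 7.97 in KO EAE, and Wdfy4 from 7.10 ± 1.55 to 144 ± 19.8 and 101 ± 28.4 CPM. Not all markers of that list followed this course. Naaa had 16.2 ± 0.105, 41.5 ± 1.85 and 39.6 ± 11.6 CPM (log2 change -0.07 from KO to KO EAE). Zbtb46 was the only one of the list that was higher in KO EAE than in KO (4.92 against 4.08 CPM, log2 change 0.26). The difference between the lists was not tested.

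**Figure D5:**
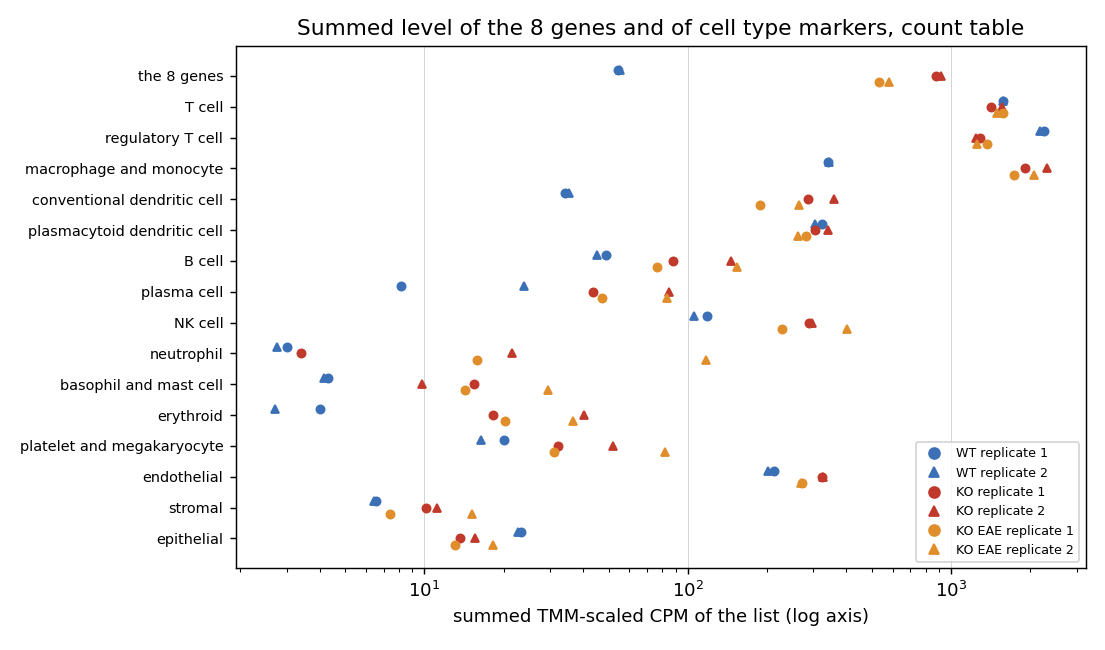
Summed TMM-scaled CPM of the 8 genes and of the 15 cell type marker lists in each library of the count table, on a log axis. The 8 genes and the macrophage, conventional dendritic cell and erythroid lists have their WT points far to the left of KO and KO EAE. Other lists, such as NK cell, plasma cell and B cell, also have both WT points left of all KO and KO EAE points. The plasmacytoid dendritic cell, regulatory T cell and epithelial lists do not. The T cell list has all 6 points between 1415 and 1577 CPM.

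Lists of other lineages gave these values. For the 8 T cell markers the median log2 change was -0.07. EdgeR called 0 of them (1 with an unadjusted p under 0.05, 0 by DESeq2). All 8 regulatory T cell markers fell (median -0.74), with Il2ra at 342 ± 13.1 CPM in WT and 188 ± 2.43 in KO. With a WT or KO library left out, 2 of these 8 calls held in all 4 fits, and that of Nrp1 held in none (highest edgeR adjusted p 0.172). All 8 had the same direction in the normalized table, 6 with an unadjusted p under 0.05, and limma called 0 and edgeR on the recovered reads 2. Of 9 tested NK cell markers 6 rose, and their sum went from 118 and 106 CPM in WT to 289 and 295 in KO. Of 6 endothelial markers only Stab2 rose, by 4.22 ± 0.10, while Pecam1 had 197 ± 8.80 and 195 ± 3.93 CPM (adjusted p = 0.922). Of 11 B cell markers 1 rose, of 8 plasmacytoid dendritic cell markers 2, of 4 plasma cell markers 1, of 4 erythroid markers 3, of 7 basophil and mast cell markers 2, and of 7 stromal markers 1. Of the 14 tested neutrophil, platelet and epithelial markers edgeR called 0 (3 with an unadjusted p under 0.05, 3 by DESeq2). Epithelial cells, in which Jup and Tspan15 are abundant, had marker sums of 23.2 and 22.6 CPM in WT against 13.6 and 15.6 in KO, mostly from Epcam.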

How the data were processed

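Per the labels' protocols, RNA of sorted mouse regulatory T cells went into libraries of an NEBNext Ultra II kit and was read on a NextSeq500. The submitters' processing notes name HISAT2, HTSeq, DESeq2 and mm10. Versions, annotation, counting mode and strand use were not given in the sources used here. The authors deposited gene counts, as whole reads without normalization, for all 6 libraries. They also deposited a normalized signal per gene for the WT and KO libraries, which is counts divided by 1 size factor per library (100% of the values were whole multiples of 1 read, tolerance 0.02 reads). The third deposited table holds the authors' mean signal, log2 fold change with its standard error, test score, p-value and adjusted p-value for KO against WT, per the file headers.

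Rows with a number or date in place of a gene were dropped: 25 count rows (at most 0.217% of reads) and 27 normalized rows (at most 0.284%). Work was done in R 4.3.3. The main test of counts was that of edgeR 4.0.16 (filterByExpr with minimum count 10 and total 15, TMM, quasi-likelihood test, all 6 libraries in 1 fit with 3 residual degrees of freedom). Normalized values were tested with limma 3.58.1 (log2(value + 1), trend, values of at least 10 in at least 2 libraries). P-values were adjusted over all genes by Benjamini-Hochberg, with a threshold of 0.05. The SE of an edgeR log2 change is its size divided by the square root of F. Both tests were tested on simulated data. Replicates differed by more than sampling noise (chi-square per degree of freedom 18.8 to 36.5), so none was counted as a copy of another; this does not show that they are independent. Alternatives were DESeq2 1.42.0, no TMM scaling, other filters and pseudocounts, a replicate block, edgeR on the recovered reads, and leaving out each library. 

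The members, lists and tests were chosen with earlier results of these data known, and the promoter motifs after the levels were seen. Named genes were the 8 genes, Bcl11b and Foxp3, up to 4 called genes per pathway list with a mean of at least 5 CPM, close relatives of the 8, the most abundant markers of each cell type list, and the 6 nearest profiles, of which 1 is not reported here. All 301 list genes matched a count row, and 300 a normalized row, 7 of them by a RefSeq synonym. Floors cover counting error only, because reads carry no molecular identifiers.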

Additional observations from a re-analysis of the deposited data

How the results depend on the processing

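The direction of each of the 8 genes held in each comparison and each alternative run. In the count table the genes were chosen for that direction, so nothing is read from its holding there. From WT to KO 13 of these count-table values moved by more than the replicate SD and 51 did not. From KO to KO EAE it was 11 and 53, and from WT to KO EAE 3 and 61. In the count table the log2 change from WT to KO moved at most from 4.38 to 4.54 (Tns3). In the normalized table, 66 of 72 values for the 8 genes stayed on the same side of the threshold, and the 6 others passed it when a WT library was left out. The number of genes called from WT to KO in the count table was 1873, and 846 to 917 with a library left out. From KO to KO EAE it was 2, against 167 by DESeq2, 0 with the replicate number as a block, and 0 to 313 with a library left out (313 without KO EAE replicate 1). From WT to KO EAE it was 1362, against 2213 by DESeq2 and 603 to 3762 with a library left out (3762 without KO EAE replicate 1). In the normalized table it was 1, against 45 with a pseudocount of 10, 51 with the replicate block, 12 by edgeR on the recovered reads, and 1 to 552 with a library left out (552 without WT replicate 2). The cause of these shifts was not tested; fits with a library left out use fewer samples. The replicate numbers pair nothing that the labels name. The deviations of same-numbered libraries correlated at 0.032 (WT and KO), -0.18 (WT and KO EAE) and 0.22 (KO and KO EAE) across genes in the count table and at -0.016 in the normalized table. The block gave 1668 calls from WT to KO and 1301 from WT to KO EAE, and no call for the 8 genes in the normalized table. Without TMM scaling 1493 genes were higher and 399 lower in KO. Depth limits the low values: Tspan15 had 20 and 17 WT reads by counts, and Agap1 and Sash1 had 0 reads in WT replicate 1 of the normalized table.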

Other observations

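Of the 281 genes whose profile was as near to the mean of the 8 genes as that of Myo10, 18 stood in the fixed lists. Myo10 is the farthest of the 8, which makes this a wide cut. The lists held 301 genes, not all of them tested, and 14540 other genes were compared. The share of tested list genes this near was not counted, so nothing is read from the number. Among them were 6 of the macrophage and monocyte markers (Adgre1, Cd14, Fcgr1, Fcgr3, Mertk and Spic), 3 of the conventional dendritic cell markers (Batf3, Itgax and Wdfy4), Cox6a2 of the plasmacytoid list and Stab2 of the endothelial list. The other 7 were relatives or partners of the 8 genes: Ctnnd1, Pvrl4, Fmnl2, Dlc1, Adap2, Tlr4 and Tspan4. These genes were named after their values were seen.

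By counts, 6 of the 8 genes stood higher in the second KO library, all but Tns3 and Tspan15. By normalized values, 6 of the 8 stood higher in the first, all but Myo10 and Nav1. In KO EAE, 7 of the 8 were higher in replicate 2, all but Jup.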
